A study of Mus musculus with 27 samples.

Results

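This report follows how the difference between islets of NOD and Rag1-deficient NOD mice changed between 6 and 8 weeks of age. The quantity read for each gene is the NOD minus Rag1ko difference at 8 weeks, less the same difference at 6 weeks, called the change between ages here. Of the 27 arrays in the series 18 enter this comparison: 3 NOD and 3 Rag1ko mice at 6 weeks, and 6 and 6 at 8 weeks. The other 9 arrays, from mice labelled NOD.Batf3-/- (Batf3ko here), were used for the estimate of spread and are quoted beside some results. All mice were untreated females on the NOD/ShiLt background, and each array holds the RNA of islets from 1 mouse. NOD mice carry intact Rag1 and Batf3, while NOD.Rag1-/- mice, written Rag1ko below, carry the deletion of Rag1 in every cell. Values are log2, made with a whole-transcript array, and 19938 genes were tested. Differences are given ± SE from a limma fit, with p-values adjusted over all genes, and a gene is called where the adjusted p is under 0.05. The p-values rest on 1 estimate of spread between mice per gene, shared by all 6 groups. Where a group spreads more than the others, this estimate can be too wide for the tighter groups. For the mean of 19 T cell genes the SD was 0.66 in 8-week NOD mice. It was 0.07 in 6-week NOD and 0.02 in 6-week Rag1ko mice. The 3 mice per group limit the precision most at 6 weeks.

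NOD mice develop autoimmune diabetes as T cells, B cells, macrophages and dendritic cells gather in and around the islets, first at the margins and later among the beta cells. Rag1 cuts DNA at the antigen receptor genes, and without it no mature T or B cell forms, so Rag1ko mice keep innate cells but have no adaptive infiltrate. Islets are released from the exocrine pancreas by digestion, and a preparation can carry exocrine tissue with it. In bulk tissue, fewer cells of a type and less RNA per cell cannot be told apart.

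The name given to the comparison, a growing difference, held for a minority of the genes it called. The change between ages passed the test for 726 genes, which is 3.64% of those tested. It was higher, so that the difference moved toward NOD, for 422 genes (2.12%), and lower for 304 (1.52%). Each called gene was then placed by the 95% intervals of its 6-week and 8-week differences. In 71 genes (9.78% of those called) the difference grew, which means that it was clear of 0 at 8 weeks only (70 genes) or clear at both ages and larger at 8 weeks (1 gene, Cd44). Growth at 8 weeks only was toward NOD in 50 genes, 0.251% of those tested, and Cd44 alone is 0.00502%. It shrank in 360 genes (49.6%), of which 353 had an interval clear of 0 at 6 weeks only. These 353 hold 141 genes with a lower change (0.707%), and the other 7 shrinking genes, clear of 0 at both ages, were all lower (0.0351%). In 295 genes (40.6%) both intervals were clear of 0 with opposite signs, and the difference is said to have reversed; 159 of these moved toward NOD (0.797%). These intervals are not adjusted over genes: both single differences passed the adjusted test in 33 of the called genes, among them 30 that reversed.

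Each age taken alone called a similar number of genes when all groups shared the estimate of spread. At 8 weeks 812 genes (4.07%) were called, 565 higher in NOD (2.83%) and 247 lower (1.24%). At 6 weeks 772 were called (3.87%), 287 higher (1.44%) and 485 lower (2.43%). Of the 565 genes higher in NOD at 8 weeks, 87 were also called with a higher change between ages. The arrays of both genotypes did not overlap for 20.3% of all genes at 6 weeks, where groups hold 3 mice, and for 2.16% at 8 weeks. Over all genes the median was -0.03 for the change between ages, -0.03 for the 8-week difference and 0.01 for the 6-week difference. Across called genes the median size of the change was 0.75, from 0.37 to 4.49. The split into higher and lower genes moved with the scaling of the arrays: 58.1% of called genes were higher as deposited, 46.6% after quantile normalization of all arrays, 27.9% after scaling to one interquartile range and 69.4% when dim genes were left out.

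**Figure D1:**
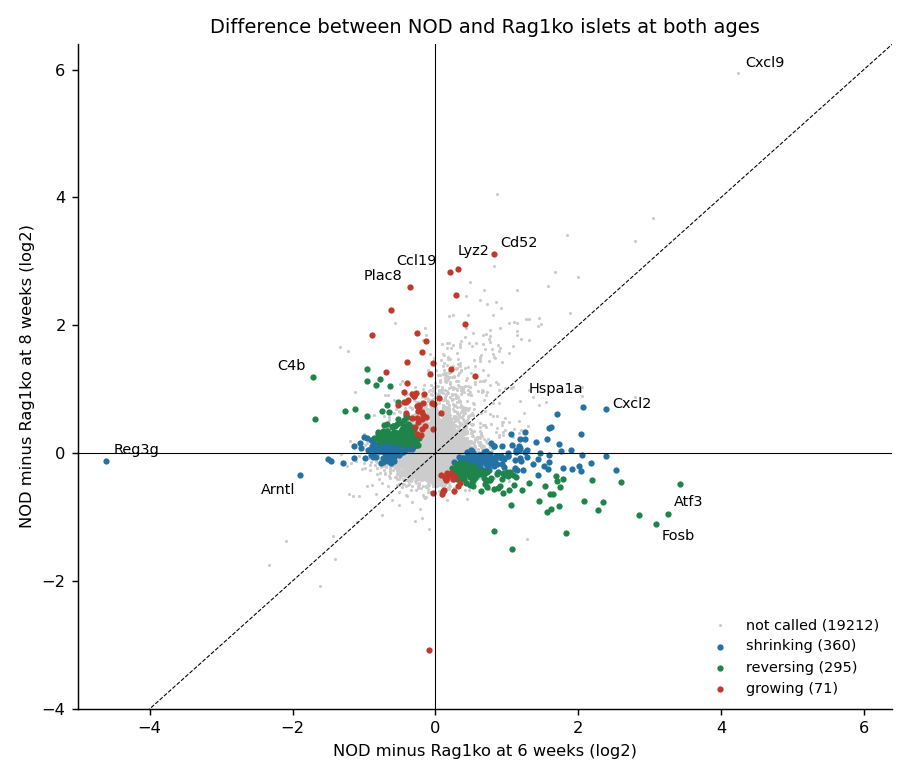
Each point is 1 gene, with the log2 difference NOD minus Rag1ko at 6 weeks on the x axis and at 8 weeks on the y axis; coloured points are the 726 called genes and the dashed line marks equal differences. The 71 growing genes lie along the y axis, the 360 shrinking genes along the x axis, and the 295 reversing genes at the upper left and lower right.

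The samples differed between ages in ways that bear on every value. Array medians were 5.29 to 5.34 at 6 weeks and 4.92 to 5.05 at 8 weeks. Interquartile ranges of the arrays were narrower at 6 weeks, 3.07 to 3.33, than at 8 weeks, 3.38 to 3.69. Transcripts of acinar cells, which make digestive enzymes, were far higher at 6 weeks: the mean of the 27 measured acinar genes was 12.12 to 12.5 in the 6-week NOD and Rag1ko mice, 7.42 to 9.6 in 8-week NOD mice and 6.16 to 8.99 in 8-week Rag1ko mice. Carboxypeptidase Cpa1 showed this at 13.37 to 13.57 in all 6 of the 6-week mice, near the highest value of the table (13.85). Islet hormones were high in every group, with Ins2 at 12.76 to 13.04 at 6 weeks and 12.44 to 12.66 at 8 weeks, and Gcg at 12.96 or more in every mouse. Of the beta cell list 1 of 22 genes was called (Pax6, lower; 1.52% of all genes were lower). With arrays scaled to one interquartile range 7 of the 22 were lower, beside 658 of all 19938 genes, with a median of -0.44 in place of -0.06. With the acinar covariate, without Rag1ko mouse 1 or NOD mouse 2 at 6 weeks, or without NOD mice 5 and 6 at 8 weeks, 0 were called. The last of these settings was chosen after seeing the data. Of the acinar list 0 of 27 genes were called, with a median change of 1.1. With the acinar mean of each array as a covariate 577 genes were called, 534 of them among the 726. The part of exocrine tissue in single results was otherwise not tested.

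**Figure D2:**
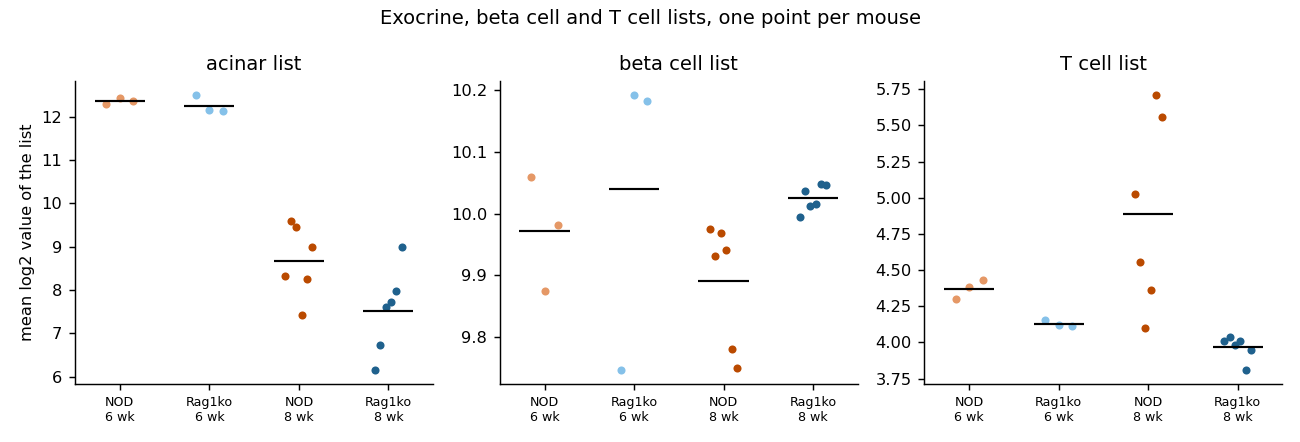
The mean log2 value of the acinar, beta cell and T cell lists is plotted for each mouse, with a bar at the group mean; the y axes differ between panels and do not start at 0. Acinar means lie above 12 in all 6-week mice and below 10 in all 8-week mice, while the T cell list spreads from 4.1 to 5.71 in 8-week NOD mice.

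The targeted gene was read first. Rag1 gave 3.15, 3.30 and 3.34 in NOD and 3.34, 4.26 and 3.70 in Rag1ko mice at 6 weeks. At 8 weeks the lowest, median and highest values were 2.52, 2.82 and 3.02 in NOD and 3.45, 3.58 and 3.79 in Rag1ko. All of these are among the dimmest values of the arrays, and the 8-week groups did not overlap, with the mice labelled Rag1ko higher. The change between ages was -0.31 ± 0.20 (adjusted p = 0.437). The position of the probes relative to the deleted part is unknown here, so the value checks no genotype, and directions rest on the labels.

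Sequences near the start of a few genes are shown because groups of genes with known promoter elements moved together. Each is the 250 bases before a transcription start, 5′ to 3′ on the gene's strand, from RefSeq on GRCm38.p6. Hspd1 and Per1 have 2 starts there, and a start with the most matches is shown. The genes shown were picked by hand. Capitals mark matches, on either strand, to TGACGTCA, the cyclic AMP response element, in Dusp1 and Btg2, to the heat shock element in Hspd1 (overlapping matches), to the E-box CACGTG in Per1, and to the interferon-stimulated response element in Ccl19.
Dusp1 (chr17:26508473-26508722, minus strand): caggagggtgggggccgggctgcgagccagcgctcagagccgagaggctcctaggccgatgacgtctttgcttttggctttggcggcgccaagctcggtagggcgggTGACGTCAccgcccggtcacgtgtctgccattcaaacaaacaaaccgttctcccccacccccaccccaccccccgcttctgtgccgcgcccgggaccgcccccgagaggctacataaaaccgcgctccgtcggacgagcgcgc
Btg2 (chr1:134079156-134079405, minus strand): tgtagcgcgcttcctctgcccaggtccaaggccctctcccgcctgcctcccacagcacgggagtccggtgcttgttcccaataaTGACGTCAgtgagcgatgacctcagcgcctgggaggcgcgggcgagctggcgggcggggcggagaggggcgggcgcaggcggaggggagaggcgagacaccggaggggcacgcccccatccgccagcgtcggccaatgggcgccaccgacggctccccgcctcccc
Hspd1 (chr1:55087933-55088182, minus strand): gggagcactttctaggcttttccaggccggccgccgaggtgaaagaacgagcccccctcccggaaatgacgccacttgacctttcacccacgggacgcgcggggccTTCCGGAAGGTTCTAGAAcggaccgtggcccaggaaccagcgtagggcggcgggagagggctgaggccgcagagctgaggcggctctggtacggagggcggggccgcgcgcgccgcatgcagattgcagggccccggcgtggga
Per1 (chr11:69098699-69098948, plus strand): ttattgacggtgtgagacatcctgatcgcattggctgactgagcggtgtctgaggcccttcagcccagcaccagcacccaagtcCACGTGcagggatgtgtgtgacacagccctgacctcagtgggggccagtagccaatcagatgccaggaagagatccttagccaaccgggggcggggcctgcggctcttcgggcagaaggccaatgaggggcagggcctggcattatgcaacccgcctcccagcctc
Ccl19 (chr4:42756366-42756615, minus strand): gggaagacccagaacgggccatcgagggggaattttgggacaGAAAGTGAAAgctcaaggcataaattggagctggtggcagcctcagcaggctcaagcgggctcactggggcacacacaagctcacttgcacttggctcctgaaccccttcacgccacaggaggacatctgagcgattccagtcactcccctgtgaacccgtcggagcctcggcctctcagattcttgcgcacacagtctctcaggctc
Shares were counted over windows that also hold the 50 bases after the start. TGACGTCA was found in 2 of 11 called immediate early genes with a promoter in the table (18.2%) and in 2.72% of 15614 promoters of tested genes. The heat shock element was in 2 of 4 called heat shock genes, Hspd1 and Hsph1, and in 0.564% of all promoters. CACGTG was in 2 of 9 called clock genes, Per1 and Tef (22.2%), in 2 of the 4 heat shock genes, Hspd1 and Hsph1 (50%), in 1 of the 11 immediate early genes, Dusp1, and in 9.5% of all. The serum response element was in 1 of the 11 immediate early genes, Zfp36, and in 1.63% of all. Among 11 named genes whose difference grew, the interferon-stimulated response element was in Ccl19 alone and TTCNNNGAA, the gamma-activated sequence, in Dpt alone, with 3.89% and 8.99% over all promoters. TTCNNNGAA was also in 2 of the 9 clock genes, Dbp and Per1 (22.2%), and in Zfp36. The plan named only the interferon-stimulated response element and the gamma-activated sequence, for the named genes whose difference grew. The other elements and gene groups were added later. A match describes these letters only.

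The largest group movement was in immediate early genes, which cells transcribe within minutes of a stimulus. Of 16 measured members 13 were called, all lower, against 1.52% of all genes, and none was called higher. The median of the list was 1.61 for the 6-week difference, -0.70 for the 8-week difference and -2.26 for the change between ages, beside -0.03 over all genes. At 6 weeks 14 of the 16 were called higher in NOD (1.44% of all genes), and at 8 weeks 8 were called lower in NOD (1.24%). The difference reversed in 11 and shrank in 2 (Jund and Ier3, chosen after their values were seen). The mean of the list was 9.32, 9.4 and 9.44 in 6-week NOD mice (sorted) and 7.43 to 8.65 in all other NOD and Rag1ko mice. The 6-week NOD mice therefore stood apart from the 3 other groups. In 6-week Batf3ko mice, which share age with them, the mean was 7.58 to 8.44.

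Fosb, a partner of Jun in the AP-1 transcription factor, gave 11.61, 11.44 and 11.58 in NOD and 8.55, 7.72 and 9.08 in Rag1ko mice at 6 weeks. At 8 weeks the lowest, median and highest were 8.56, 9.71 and 10.17 in NOD and 9.64, 10.82 and 11.19 in Rag1ko. The groups were apart at 6 weeks and overlapped at 8 weeks with Rag1ko higher, so that the difference went from 3.09 to -1.11. The change between ages was -4.20 ± 0.49 (adjusted p = 7.77e-06). Atf3, a stress-induced transcription factor, gave 11.31, 11.06 and 11.27 in NOD and 8.45, 7.39 and 8.03 in Rag1ko at 6 weeks. Its 8-week values ran from 7.2 to 8.26 in NOD and from 7.01 to 9.49 in Rag1ko, which overlap, and the change was -4.20 ± 0.59 (adjusted p = 8.1e-05). Its difference at 8 weeks, -0.95, did not pass the limma test (adjusted p = 0.121).

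Dusp1, a phosphatase that switches off MAP kinases and one of the promoters shown above, gave 11.56, 11.40 and 11.57 in NOD and 9.28, 9.16 and 9.84 in Rag1ko at 6 weeks. Its 8-week values were 8.98, 9.3 and 9.59 (lowest, median, highest) in NOD and 9.28, 10.09 and 10.62 in Rag1ko. Only the 6-week groups were apart, and the change was -2.83 ± 0.34 (adjusted p = 1.42e-05). Ier2 gave 9.04, 9.36 and 9.26 against 7.88, 6.86 and 7.42 at 6 weeks, and medians of 6.79 in NOD and 7.94 in Rag1ko at 8 weeks, where the groups overlapped by a narrow margin (7.09 the highest NOD value and 7.07 the lowest Rag1ko value). Both of its single differences passed the test, 1.83 at 6 weeks (adjusted p = 0.000956) and -1.25 at 8 weeks (adjusted p = 0.00134). Junb, a further AP-1 member, was apart at both ages in opposite directions: 8.33 to 8.61 in NOD above 6.47 to 7.33 in Rag1ko at 6 weeks, and 6.98 to 7.28 in NOD below 7.46 to 8.4 in Rag1ko at 8 weeks.

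The orphan nuclear receptor Nr4a1 changed by -3.18 ± 0.50 and Fos by -2.48 ± 0.38 (adjusted p = 0.000343 and 0.000251). Npas4, a calcium-induced transcription factor that is outside the list, changed by -3.12 ± 0.57. Jun, Egr1, Btg2 and Zfp36, chosen after their values were seen as other called members, changed by -2.29, -2.24, -1.87 and -2.18. Btg2, an antiproliferative gene whose promoter is shown, was 10.89 to 11.05 in NOD at 6 weeks and 9.67 to 10.18 in Rag1ko. Genes outside the list with the same pattern were the small GTPases Gem (-3.05 ± 0.36) and Rhob (-2.60 ± 0.24), both high in the 3 6-week NOD mice. Rhob was apart at both ages, 7.98 to 8.32 in NOD above 5.65 to 6.10 in Rag1ko at 6 weeks, and 5.72 to 6.33 below 6.34 to 6.65 at 8 weeks.

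Klf6, Ppp1r15a, Maff and Rgs2 were among the named genes whose interval was clear of 0 at 6 weeks only. Klf6, a zinc finger transcription factor, was 9.97, 9.83 and 10.01 in NOD and 7.80, 6.82 and 7.63 in Rag1ko at 6 weeks. Its 8-week ranges, 7.38 to 7.63 and 7.26 to 8.2, overlapped, and the change was -2.80 ± 0.30 (adjusted p = 1.85e-06). Ppp1r15a, which reverses the phosphorylation of eIF2 alpha, and the small Maf protein Maff changed by -2.21 ± 0.26 and -2.09 ± 0.26, with 8-week differences of -0.20 and -0.03. Rgs2, a brake on G protein signalling, changed by -2.44 ± 0.55 (adjusted p = 0.0104).

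**Figure D3:**
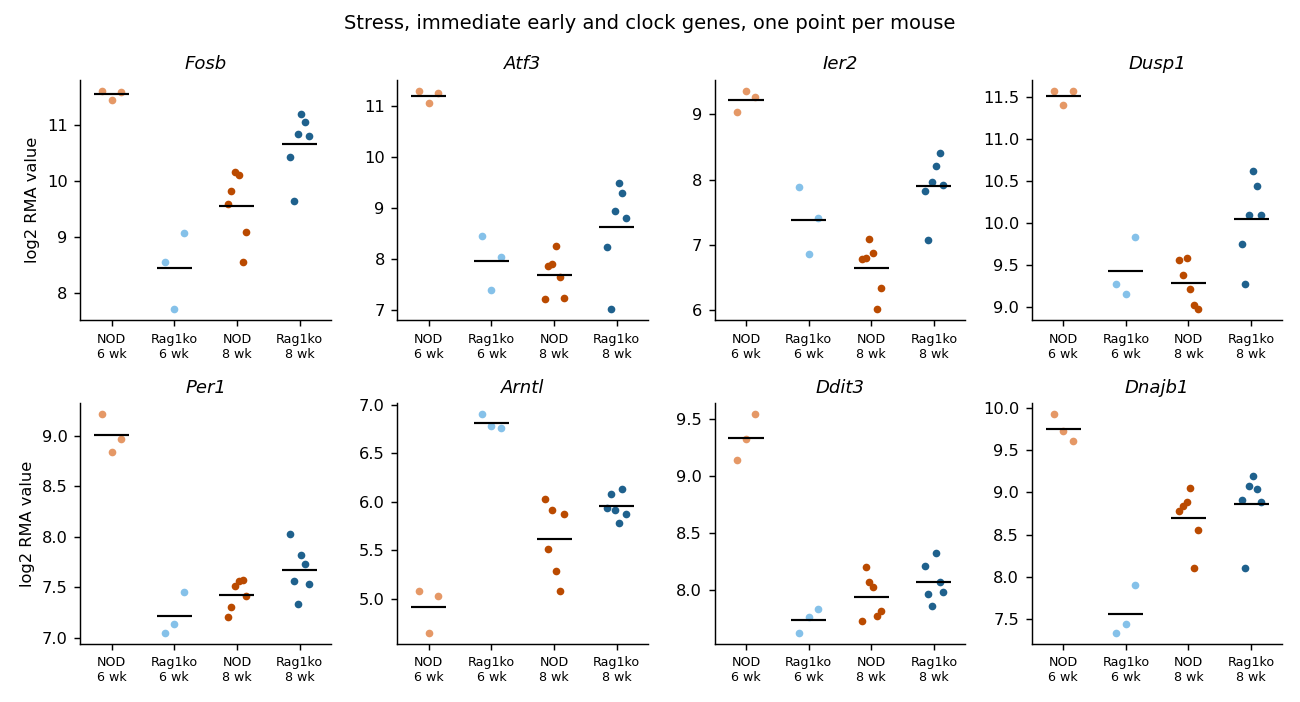
Log2 values of 8 genes are plotted for each mouse, with a bar at the group mean; the y axes differ between panels and do not start at 0. In 7 of the 8 panels the 3 NOD mice at 6 weeks are the highest, and in the panel of Arntl they lie with the lowest.

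Heat shock genes, which encode chaperones that refold proteins, were lower in the change between ages in 5 of 8 measured members (1.52% of all genes), and 0 were higher. All 5 shrank, and the list median went from 0.69 at 6 weeks to 0.05 at 8 weeks. Dnajb1, a partner of Hsp70, gave 9.92, 9.72 and 9.60 in NOD and 7.34, 7.44 and 7.91 in Rag1ko at 6 weeks. At 8 weeks it was 8.1 to 9.05 in NOD and 8.1 to 9.19 in Rag1ko, with full overlap, and the change was -2.35 ± 0.29 (adjusted p = 1.99e-05). The inducible Hsp70 gene Hspa1a kept part of its difference. It was 9.69, 9.91 and 9.57 against 7.42, 7.54 and 8.04 at 6 weeks, and 10.36, 10.48 and 10.8 (lowest, median, highest) against 9.26, 9.91 and 10.04 at 8 weeks. Groups were apart at both ages, and the difference fell from 2.06 to 0.72 (change -1.34 ± 0.21, adjusted p = 0.00033). Hsph1 changed by -1.63 ± 0.21 and Hspa8 by -0.47 ± 0.11. Hspd1, chosen after its values were seen for its promoter, changed by -0.45 ± 0.11.

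Of 19 genes of the unfolded protein response, which endoplasmic reticulum stress induces, 4 were called lower (Atf3, Chac1, Ddit3 and Herpud1), against 1.52% of all genes, and 0 higher; the list median was -0.11. The remaining 15 did not pass the test. With arrays scaled to one interquartile range 8 were lower, beside 658 of all 19938 genes, with a median of -0.45. Ddit3, the transcription factor CHOP, gave 9.14, 9.32 and 9.54 in NOD and 7.62, 7.76 and 7.83 in Rag1ko at 6 weeks. Its ranges at 8 weeks overlapped (7.72 to 8.2 and 7.86 to 8.32), and the change was -1.73 ± 0.17 (adjusted p = 4.13e-07).

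Circadian clock genes form a loop in which Arntl and Clock switch on Per and Cry genes and the receptors Nr1d1 and Nr1d2, which then repress Arntl and Clock. Of 15 measured members 9 were lower in the change between ages (1.52% of all genes) and 2 were higher (2.12%). The 9 were Bhlhe40, Cry2, Dbp, Nr1d1, Nr1d2, Per1, Per2, Per3 and Tef, and the 2 were Arntl and Clock; Bhlhe40, Clock, Nr1d2 and Per2 were chosen after their values were seen. Without Rag1ko mouse 1 at 6 weeks 6 were lower, beside 222 of all 19938 genes. The difference shrank in 10 of the 11 and reversed in 1 (Cry2). At 6 weeks 11 members were higher (1.44% of all genes) and 3 lower in NOD (2.43%). At 8 weeks 2 were higher (2.83%) and 0 lower (1.24%). List medians were 1.25 at 6 weeks and 0.21 at 8 weeks.

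Per1, whose product represses the loop, gave 9.21, 8.84 and 8.97 in NOD and 7.05, 7.14 and 7.45 in Rag1ko at 6 weeks. At 8 weeks the values were 7.21, 7.46 and 7.57 (lowest, median, highest) and 7.33, 7.65 and 8.03. The 8-week groups overlapped, and the change was -2.03 ± 0.26 (adjusted p = 2.23e-05). Nr1d1 gave 10.02, 10.15 and 10.14 against 7.88, 7.98 and 8.34 at 6 weeks, then 8.43 to 9.15 against 7.95 to 9.13 at 8 weeks, a change of -1.75 ± 0.26. Its values in 6-week Batf3ko mice, 9.64 to 9.92, lay near the NOD mice, whereas those of Per1 ran from 7.19 to 8.53. Cry2 changed by -2.05 ± 0.26 and Per3 by -1.20 ± 0.31.

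Arntl, the activator of the loop, was opposite. It gave 5.08, 4.65 and 5.03 in NOD and 6.90, 6.78 and 6.76 in Rag1ko at 6 weeks, which do not overlap. At 8 weeks NOD ran from 5.08 to 6.03 and Rag1ko from 5.78 to 6.13, which do, so that the difference went from -1.90 to -0.34. Its change was 1.56 ± 0.30 (adjusted p = 0.00271). Among the clock genes called for the change, Dbp, an output gene, was the one with a difference that passed at both ages. It was 1.70 at 6 weeks and 0.62 at 8 weeks (adjusted p = 7.45e-06 and 0.013).

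Glucocorticoid-responsive genes, which the adrenal hormone corticosterone induces through its receptor, were lower in 8 of 13 measured members (1.52% of all genes) and higher in 0. Dusp1 and Per1 stand in this list and in those above. The list median was 1.17 at 6 weeks and -0.11 at 8 weeks, and 9 members were called higher in NOD at 6 weeks (1.44% of all genes). Fkbp5, a chaperone of the receptor, gave 8.02, 7.40 and 8.05 in NOD and 6.43, 6.43 and 6.69 in Rag1ko at 6 weeks. At 8 weeks its ranges, 6.13 to 7.0 and 6.5 to 7.33, overlapped, and the change was -1.78 ± 0.26 (adjusted p = 0.000111). Zbtb16 changed by -2.14 ± 0.34; it was 7.09 to 7.67 in NOD at 6 weeks and 5.1 or lower in every 8-week mouse of both genotypes. Tsc22d3, Klf9, Errfi1 and Ddit4, chosen after their values were seen as the other called members, changed by -0.82, -0.65, -1.73 and -1.49.

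**Figure D4:**
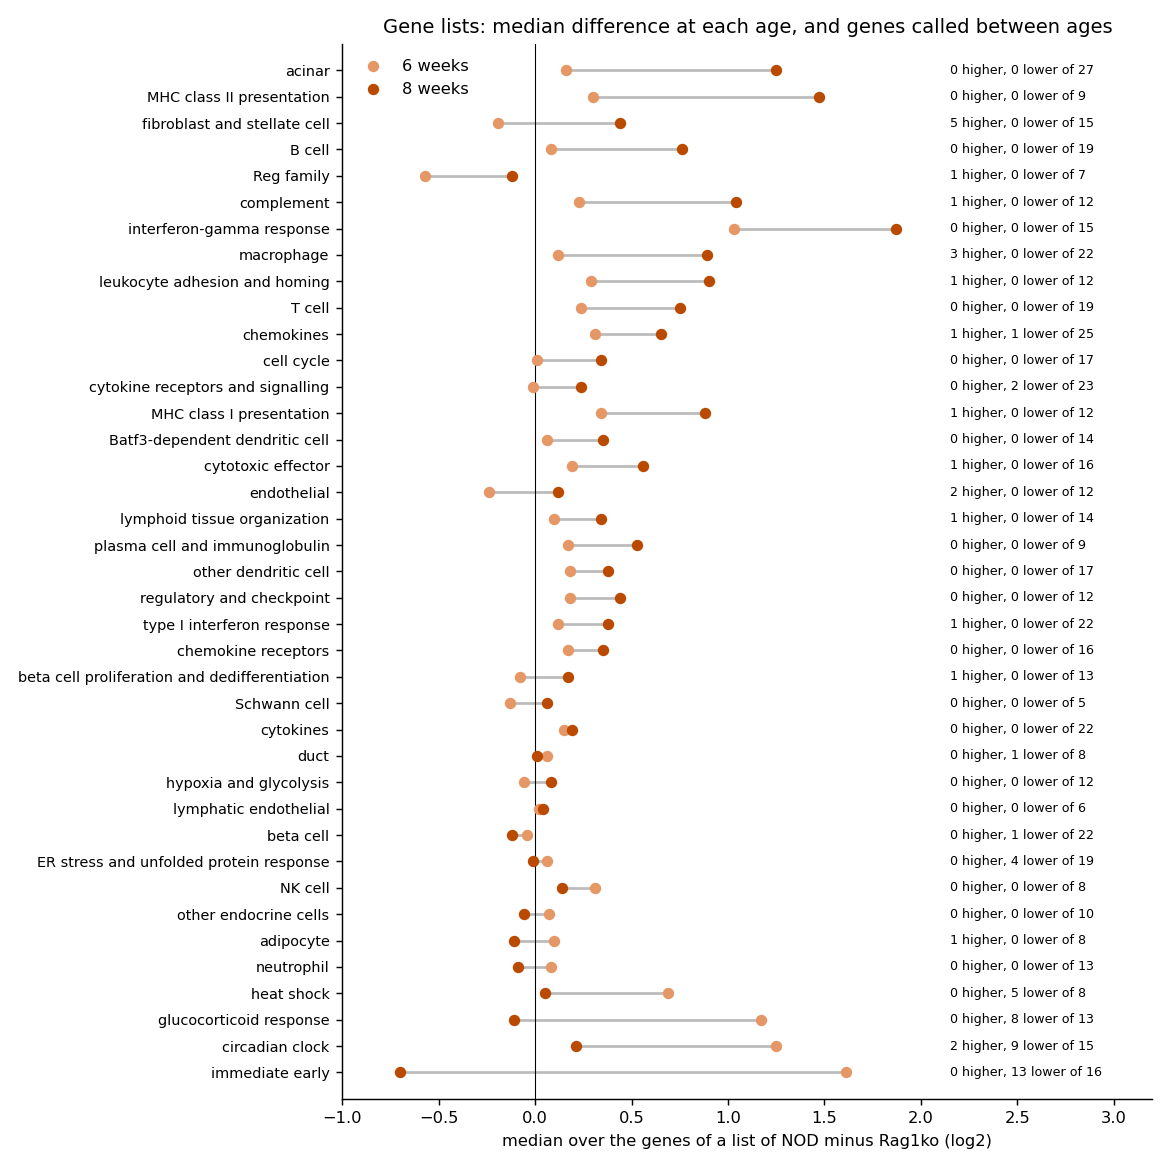
For each gene list with 5 or more measured genes the x axis gives the median log2 difference NOD minus Rag1ko at 6 weeks (light points) and 8 weeks (dark points), and the text at the right gives how many genes were called higher or lower in the change between ages. Lists are sorted by their median change: immediate early, clock, glucocorticoid and heat shock lists lie at the bottom, and the acinar and MHC class II lists at the top with 0 genes called.

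With small RNAs and predicted genes left out, the 8 genes with the largest growth were Plac8, Dpt, Lum, Ccl19, Lyz2, Cd52, AW112010 and Cyba, all toward NOD. The microRNA gene Mir7b, which that rule leaves out, grew toward Rag1ko by -2.99. Plac8, a small protein of myeloid and lymphoid cells, was 3.78, 3.93 and 3.84 in NOD and 4.76, 4.06 and 3.81 in Rag1ko at 6 weeks. At 8 weeks the lowest, median and highest were 4.83, 6.23 and 7.7 in NOD and 3.08, 3.79 and 4.11 in Rag1ko. The groups overlapped at 6 weeks and were apart at 8 weeks, and the change was 2.96 ± 0.60 (adjusted p = 0.00469). Cyba, a subunit of the phagocyte oxidase, was 5.63, 5.39 and 5.74 against 6.47, 5.27 and 5.82 at 6 weeks and 5.72, 6.43 and 7.78 against 4.29, 4.71 and 4.98 at 8 weeks. It showed the same pattern as Plac8, with a change of 2.14 ± 0.43 (adjusted p = 0.00414). Cd52, a surface protein of lymphocytes, was apart at both ages, 6.22 to 6.85 above 5.49 to 5.89 at 6 weeks and 6.55 to 9.63 above 4.65 to 5.48 at 8 weeks. Its change was 2.29 ± 0.61 (adjusted p = 0.033).

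Among 22 macrophage genes 3 were called higher (2.12% of all genes), 0 lower, and the list median went from 0.12 at 6 weeks to 0.89 at 8 weeks. The 3 were Lyz2, Fcer1g and Lgals3, the last chosen after its values were seen. Lyz2, the macrophage lysozyme, gave 7.15, 8.08 and 7.74 in NOD and 8.43, 6.79 and 6.79 in Rag1ko at 6 weeks, and 7.56, 9.28 and 10.66 against 6.06, 6.43 and 6.82 at 8 weeks. It was apart at 8 weeks only, with a change of 2.57 ± 0.68 (adjusted p = 0.033). Fcer1g, the signalling chain of activating Fc receptors, changed by 1.45 ± 0.37 (adjusted p = 0.0235). It went from 5.88 to 5.98 at 6 weeks to 6.01 to 7.52 at 8 weeks in NOD. In Rag1ko it fell from 5.90 to 6.12 to 4.43 to 5.74. Lgals3 was 5.99 to 6.11 and then 5.94 to 6.44 in NOD, and 5.92 to 6.01 and then 5.38 to 5.74 in Rag1ko. In Batf3ko mice Lgals3 also fell, from 5.93 to 5.98 to 5.23 to 5.72. Part of both changes was thus a fall in Rag1ko mice. At 8 weeks alone 18 of the 22 genes were called higher in NOD, and at 6 weeks 0 (2.83% and 1.44% of all genes). The count of 0 does not show equal values, as the test uses a spread shared with the 8-week NOD mice. Aif1, of this list, was 5.10 to 5.36 in NOD and 4.06 to 4.24 in Rag1ko at 6 weeks. Its 6-week difference of 1.10 ± 0.33 did not pass the limma test (adjusted p = 0.0611). At that age the groups were apart for 20.3% of all genes.

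Ccl19, a chemokine that draws T cells and dendritic cells through Ccr7, was 7.15, 6.68 and 7.12 in NOD and 7.10, 6.74 and 6.48 in Rag1ko at 6 weeks. At 8 weeks it was 6.07, 8.88 and 10.24 in NOD and 5.68, 5.94 and 6.3 in Rag1ko. The ranges overlapped at both ages, at 8 weeks through NOD mouse 3 (6.07), and the change was 2.63 ± 0.72 (adjusted p = 0.0389). Of 25 chemokines 1 more was called: Cxcl2, which attracts neutrophils, shrank from 2.40 at 6 weeks to 0.69 (change -1.70 ± 0.44, adjusted p = 0.0267). Without NOD mouse 3 at 8 weeks 6 chemokines were called higher, beside 497 of all 19938 genes. Psmb10, a subunit of the immunoproteasome, changed by 1.10 ± 0.28 (adjusted p = 0.0274). It was 8.24 to 8.54 in NOD and 7.83 to 8.68 in Rag1ko at 6 weeks, and 7.3 to 8.38 and 6.29 to 6.79 at 8 weeks. The group mean thus fell between ages in both genotypes, and fell further in Rag1ko. The call of Psmb10 was lost in 8 of 29 alternatives. Klrk1, the receptor NKG2D, was the 1 called gene of 16 cytotoxic genes and was chosen after its value was seen (0.81 ± 0.23, adjusted p = 0.0489).

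Cd44, an adhesion receptor of activated lymphocytes that other cells also carry, was the single gene whose difference was clear of 0 at both ages and larger at 8 weeks. It gave 6.69, 6.51 and 6.52 in NOD and 6.03, 6.02 and 5.99 in Rag1ko at 6 weeks. At 8 weeks the values were 6.55, 6.81 and 7.19 in NOD and 5.44, 5.69 and 5.9 in Rag1ko. The groups were apart at both ages, and the difference went from 0.56 to 1.21 (change 0.65 ± 0.17, adjusted p = 0.0318). In Batf3ko mice Cd44 was 6.64 to 6.91 at 6 weeks and 6.25 to 6.51 at 8 weeks, above the Rag1ko mice at both ages. Its call was lost in 11 of 29 alternatives, among them quantile normalization and scaling to one interquartile range.

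Fibroblast and stellate cell genes were called higher in 5 of 15 measured members (2.12% of all genes), lower in 0. Without NOD mouse 3 at 8 weeks 9 were called higher, beside 497 of all 19938 genes. Lum, Vim and Col3a1 grew and Acta2 and Sparc reversed; Col3a1, Acta2 and Sparc were chosen after their values were seen. Lum, a proteoglycan of collagen fibres, was 3.26, 3.22 and 3.14 in NOD and 5.61, 3.73 and 2.94 in Rag1ko at 6 weeks, and 3.77, 5.09 and 5.88 against 2.89, 3.05 and 3.61 at 8 weeks. The 8-week groups were apart, and the change was 2.73 ± 0.63 (adjusted p = 0.0128). Rag1ko mouse 1 at 6 weeks had the highest value of its group for Lum and for Dpt, a matrix protein that was 7.14 in this mouse, 5.79 and 4.38 in the others of its group, and 4.71 to 5.51 in NOD. Its fibroblast list mean was 6.37, above 5.42 and 5.65 in the other Rag1ko mice of that age.

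Without that mouse 22 genes grew in place of 71, 505 were called in all, and 0 of the fibroblast list and 0 of the macrophage list were called. The 6-week median of the macrophage list was then 0.46 in place of 0.12, and that of the fibroblast list 0.08 in place of -0.19. Lum then changed by 1.97 (adjusted p = 0.0669), Dpt by 2.18 (0.164), Lyz2 by 2.02 (0.13), Cd52 by 2.19 (0.0843), Ccl19 by 2.47 (0.1), Fcer1g by 1.38 (0.0661), Vim by 1.44 (0.124) and Cd44 by 0.64 (0.0702). Plac8 and Cyba stayed called, at 2.68 (adjusted p = 0.0229) and 1.83 (0.0239). Of the immediate early list 14 genes were then called lower, beside 222 of all 19938 genes. NOD mouse 3 at 8 weeks acted the other way: without it 170 genes grew and 803 were called. Without NOD mouse 2 at 6 weeks 393 genes were called, 25 of them growing, 177 shrinking and 191 reversing. Growing genes numbered 44 without NOD mouse 1 and 34 without NOD mouse 3 at 6 weeks, and 33 and 39 without Rag1ko mouse 2 or 3, which also left 500 and 477 genes called at 6 weeks. Leaving out NOD mouse 6 at 8 weeks gave 43 growing genes and 473 called at 8 weeks, and leaving out NOD mouse 5 gave 481 called at 8 weeks. Growth is thus the class that depended most often on single mice among those tried.

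**Figure D5:**
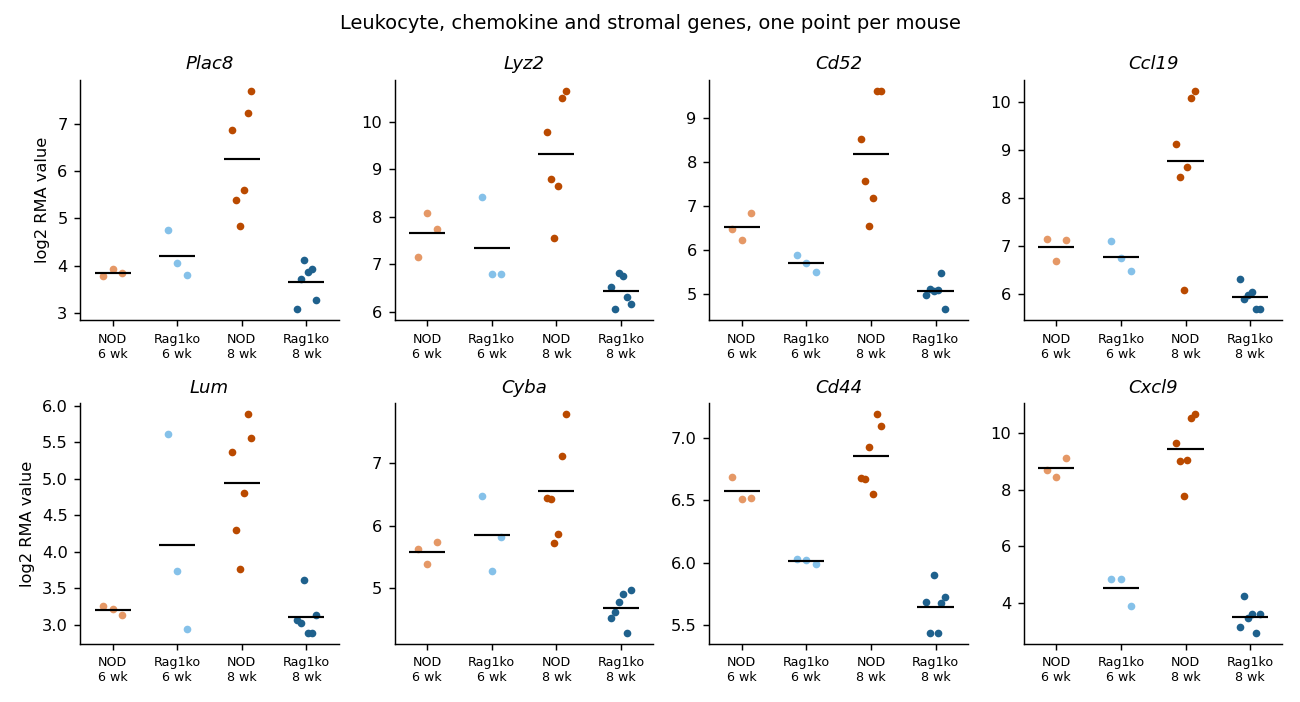
Log2 values of 8 leukocyte, chemokine and stromal genes are plotted for each mouse, with a bar at the group mean; the y axes differ between panels and do not start at 0. In 8-week NOD mice the values spread widely, as for Plac8 from 4.83 to 7.7, while 8-week Rag1ko mice lie close together, and Cxcl9 is the panel whose change between ages did not pass the test.

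Lists of adaptive lymphocytes and of the interferon response held few genes that passed the test of change between ages. Of 19 T cell genes 0 were called in either direction. Their median change was 0.49, with list medians of 0.24 at 6 weeks and 0.75 at 8 weeks. Called higher in NOD were 11 at 8 weeks and 0 at 6 weeks (2.83% and 1.44% of all genes). The 6-week test uses a spread shared with the 8-week NOD mice, so that 0 does not show equal values. Cd3g, a chain of the T cell receptor complex, was 3.97, 3.58 and 3.31 in NOD and 2.82, 2.84 and 2.74 in Rag1ko at 6 weeks. At 8 weeks it was 4.25, 5.78 and 7.72 in NOD and 2.61, 2.94 and 3.54 in Rag1ko. The groups were apart at both ages, and the change was 2.10 ± 0.65 (adjusted p = 0.071). Of 19 B cell genes 0 were called for the change and 3 higher in NOD at 8 weeks, and of 9 plasma cell genes 0 and 1 (2.83% of all genes were higher at 8 weeks). The 8-week medians of these lists were 0.76 and 0.53, and 0.16 and 0.14 without NOD mice 5 and 6 at 8 weeks. That setting was chosen after seeing the data, for the highest T cell list means, so that a loss is built into it. Of 22 type I interferon genes 1 was called higher for the change (Oas2) and 7 were higher in NOD at 8 weeks (2.12% and 2.83% of all genes). Jchain, the joining chain of secreted immunoglobulin, ran from 2.97 to 8.87 in 8-week NOD mice and had a change of 3.18 ± 1.01 (adjusted p = 0.0779). A p above the threshold does not show that such a difference stayed the same.

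Cxcl9, a chemokine that interferon-gamma induces, gave 8.70, 8.46 and 9.13 in NOD and 4.85, 4.86 and 3.88 in Rag1ko at 6 weeks. At 8 weeks it was 7.77, 9.35 and 10.67 in NOD and 2.94, 3.53 and 4.25 in Rag1ko. The groups were apart by a wide gap at both ages, with a difference of 4.23 at 6 weeks, 5.95 at 8 weeks and a change of 1.71 ± 0.58 (adjusted p = 0.1). Of 15 interferon-gamma genes 0 were called for the change. At 6 weeks 7 were called higher in NOD and at 8 weeks 11 (1.44% and 2.83% of all genes). All 9 measured MHC class II genes were called higher in NOD at 8 weeks and 2 at 6 weeks (2.83% and 1.44% of all genes). Of the 9 genes 0 passed for the change, whose values ran from 0.48 to 1.3. H2-Aa changed by 1.05 ± 0.37 (adjusted p = 0.115). Without NOD mouse 3 at 8 weeks 3 of the MHC class II genes, 4 of the T cell genes and 4 of the interferon-gamma genes were called higher. In that setting 497 of all 19938 genes were called higher.

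Reversal in the direction of NOD was seen in genes of several cell types. C4b, a complement component, was 5.90, 5.90 and 5.28 in NOD and 8.50, 6.84 and 6.89 in Rag1ko at 6 weeks. Its 8-week values were 3.9, 5.58 and 6.76 in NOD and 3.84, 4.55 and 4.8 in Rag1ko. The 6-week groups were apart with Rag1ko higher and the 8-week groups overlapped, and the difference went from -1.71 to 1.19 (change 2.91 ± 0.59, adjusted p = 0.00457). Clec2d, a lectin-like ligand of natural killer cell receptors, was apart at both ages: 3.96 to 5.01 in NOD below 5.24 to 6.12 in Rag1ko at 6 weeks, and 4.16 to 5.3 above 3.36 to 3.95 at 8 weeks. Its change was 2.10 ± 0.32 (adjusted p = 0.000269). Lgals9, a galectin, changed by 2.22 ± 0.38 and the interferon-induced membrane protein Ifitm3 by 1.93 ± 0.40. In the adjusted limma test Lgals9 did not pass at 8 weeks (adjusted p = 0.185), nor Ifitm3 at 6 weeks (adjusted p = 0.223). Rag1ko mouse 1 was the highest of its 6-week group for C4b, Clec2d, Lgals9 (10.05, others 8.49 and 8.36) and Ifitm3 (11.32, others 10.08 and 10.16). Without this mouse these genes kept their calls, whereas S100a6 and Oas2, which reversed the same way, lost theirs. In that setting 210 genes reversed in place of 295, and 505 were called in place of 726. Of 12 endothelial genes 2 were called higher (2.12% of all genes), Eng (1.06 ± 0.19, adjusted p = 0.00156) and Pecam1 (1.02 ± 0.23, adjusted p = 0.00969). Both reversed by their intervals, which are not adjusted. In the adjusted limma test of each age Eng did not pass at 6 weeks (adjusted p = 0.0592). Pecam1 passed at neither age (adjusted p = 0.0644 at 6 weeks and 0.0794 at 8 weeks).

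Reg3g, a secreted lectin that kills bacteria and that injured pancreas also makes, was far lower in NOD at 6 weeks and low in both groups at 8 weeks. It was 5.26, 6.03 and 5.55 in NOD and 11.05, 9.72 and 9.89 in Rag1ko at 6 weeks. At 8 weeks it ran from 2.25 to 2.97 in NOD and from 2.23 to 4.58 in Rag1ko, with medians of 2.57 and 2.41. The wide gap at 6 weeks was absent at 8 weeks: the difference went from -4.61 to -0.12 (change 4.49 ± 0.56, adjusted p = 1.71e-05). Its 8-week values were at the dim end of the arrays, and a difference among such values is poorly measured. In 6-week Batf3ko mice it was 4.65 to 6.52, near the NOD mice. Of 7 Reg genes this was the 1 called. Reg3b, chosen after its values were seen, was 11.13 to 11.58 in NOD and 12.91 to 13.06 in Rag1ko at 6 weeks. At 8 weeks it was 3.56 to 5.55 in NOD and 5.86 to 8.86 in Rag1ko. It was thus lower in NOD without overlap at both ages, and its change did not pass (-0.47 ± 1.08, adjusted p = 0.85). In the limma test of each age, 1 Reg gene was called lower in NOD at 6 weeks, Reg3g, and 0 at 8 weeks (2.43% and 1.24% of all genes).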

How the data were processed

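Islet RNA of 27 mice was measured on Affymetrix Mouse Gene 1.0 ST arrays. The deposited values are log2 values that the authors normalized with RMA in Arraystar, per the series text; the submitters' processing notes also name Affymetrix Expression Console and mm9, with no role, and no version is stated in these sources. No further normalization was applied. Of 30177 probe sets 21789 name 1 gene symbol, 1621 several and 6767 none, and the first kind was used, keeping for 999 genes with several the one of highest mean; 21698 had an Entrez identifier in the RefSeq table of GRCm38.p6. The highest correlation between arrays was 0.9959, and none was counted as a copy.

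limma 3.58.1 in R 4.3.3 fitted 6 group means over all 27 arrays (21 residual and 5.52 prior degrees of freedom), with Benjamini-Hochberg adjustment over 19938 genes; the code was tested on simulated data. Lists (40) are described by counts and medians with no test. The members, lists and rules were chosen with earlier results of these data known. Genes were named by rule: the 15 highest and 15 lowest changes, up to 8 of the largest in each class, up to 4 per list, and Rag1, leaving out predicted genes, RIKEN clones, small RNAs, olfactory receptors and receptor segments; other genes in the text were picked with their values known. Same-numbered mice did not deviate together (r from -0.21 to 0.04). Alternatives were the fit of 18 arrays, filters (dim genes are those not above 5.1 in 3 arrays), scalings, weights, the variance prior, an acinar covariate, a replicate block, fewer mice and stricter rules.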

Additional observations from a re-analysis of the deposited data

Results flagged for a closer look

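The difference between NOD and Rag1ko mice depended on age by the test of that dependence itself in each of the 96 genes below (those outside the naming rule, such as Crhbp, Ddx5 and the microRNAs, were chosen after their values were seen), and the log2 change between ages is given for each. It grew toward NOD in Plac8 2.96, Dpt 2.86, Lum 2.73, Ccl19 2.63, Lyz2 2.57, Cd52 2.29, AW112010 2.19, Cyba 2.14, Lrg1 1.96, Vim 1.77, Fcer1g 1.45, Psmb10 1.10, Col3a1 0.84, Klrk1 0.81, Cd44 0.65, Lgals3 0.56 and Psma7 0.41. Growth toward Rag1ko was seen in Mir7b -2.99 and Crhbp -0.86. Reversal from Rag1ko at 6 weeks to NOD at 8 weeks gave C4b 2.91, S100a6 2.28, Lgals9 2.22, Clec2d 2.10, Ifitm3 1.93, Oas2 1.54, Fabp4 1.41, Acta2 1.16, Ndufs5 1.10, Eng 1.06, Pecam1 1.02, Psmb3 1.01, Mrps28 0.99, Psmb1 0.90, Psmd14 0.89 and Cd81 0.50. In the opposite direction the values were Atf3 -4.20, Fosb -4.20, Fam71a -3.91, Polg2 -3.83, Nr4a1 -3.18, Npas4 -3.12, Ier2 -3.08, Gem -3.05, Dusp1 -2.83, Rhob -2.60, Mir7-2 -2.57, Mir23a -2.55, Junb -2.49, Fos -2.48, Jun -2.29, Egr1 -2.24, Mir27a -2.19 and Zfp36 -2.18. Further genes that reversed this way were Zbtb16 -2.14, Cry2 -2.05, Btg2 -1.87, Mir24-2 -1.79, Fkbp5 -1.78, Socs3 -1.58, Il6ra -0.83 and Pax6 -0.58. A difference that was lower in NOD at 6 weeks and shrank gave Reg3g 4.49, Arntl 1.56, Mrpl13 0.90 and Clock 0.61. A shrinking difference that had been higher in NOD gave Klf6 -2.80, Rgs2 -2.44, Dnajb1 -2.35, Ppp1r15a -2.21, Csrnp1 -2.17, Maff -2.09, Per1 -2.03, Nr1d1 -1.75, Chac1 -1.73, Errfi1 -1.73, Ddit3 -1.73, Cxcl2 -1.70, Hsph1 -1.63, Ddit4 -1.49, Hspa1a -1.34, Nr1d2 -1.24, Herpud1 -1.24 and Ccn1 -1.21. Further values were Per3 -1.20, Per2 -1.10, Dbp -1.08, Bhlhe40 -1.04, Ier3 -0.96, Krt8 -0.95, Jund -0.94, Tsc22d3 -0.82, Tef -0.75, Klf9 -0.65, Ddx5 -0.54, Hspa8 -0.47 and Hspd1 -0.45.

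In 15 of 260 groups of 6 mice checked, 1 mouse lay far from the other 5 of its group; chance alone flags about 1 in 20 groups. Rag1ko mouse 2 at 8 weeks had the lowest value for Dnajb1 (8.1), Hsph1 (9.05), Hspa1a (9.26), Csrnp1 (5.52), Cd3d (2.21) and Mir7b (8.17). Rag1ko mouse 6 was highest for Reg3g (4.58) and Reg3b (8.86), and mouse 3 for Lum (3.61) and Irgm1 (6.08). In the same group Rag1ko mouse 1 was highest for Rgs2 (9.72), mouse 4 highest for Krt8 (9.65) and mouse 5 lowest for Nkg7 (2.81). Among NOD mice at 8 weeks, mouse 5 was highest for Bhlhe40 (6.82) and mouse 3 highest for Ddit4 (7.72). The cause of these values was not tested.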

How the results depend on the processing

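Counts of genes called were compared over 29 alternatives and over stricter rules. With only the 18 NOD and Rag1ko arrays in the fit 30 genes grew, with one interquartile range 111 and with array weights 124. Those weights, set per group, gave 1100 genes called at 6 weeks and 663 at 8 weeks, in place of 772 and 812. With 8-week mice 1 to 3 only, 360 genes were called, of which 30 grew, 168 shrank and 162 reversed, and 173 were called at 8 weeks. Leaving out both NOD mice 5 and 6 at 8 weeks left 36 growing genes and 298 called at 8 weeks; this setting was chosen after seeing the data, for the highest T cell list means, so that a loss is built into it. At an adjusted p under 0.01 the counts were 278 called, 10 growing, 122 shrinking and 146 reversing, with 326 at 8 weeks and 335 at 6 weeks. Classes set by the signs and sizes of the estimates alone gave 11 growing, 64 shrinking and 651 reversing. Leaving out 1 mouse at a time gave 393 to 803 called, 22 to 170 growing, 177 to 363 shrinking, 191 to 318 reversing, 473 to 1022 called at 8 weeks and 377 to 786 at 6 weeks. Growing genes were fewer than shrinking or reversing genes in every alternative with these classes. With the replicate number as a block 637 genes were called, 595 of them among the 726; 0 of 15 same-number pairs correlated above 0.1 and 2 matched their own number best, so the numbers do not pair the mice. Of 130 genes followed, 96 were called; all 96 kept their direction in each of the 29 alternatives, 53 were called in all of them, and 20 uncalled genes became called in some. The call was lost most often for Lgals3, Klrk1 and Psma7 (19 alternatives each), Ccl19 (17), Acta2 (16) and Dpt (15). The causes were not tested. Age cannot be told apart from the shift between the arrays of both ages, and 3 mice per group limit the 6-week values.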

Other observations

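Counts over other gene families, chosen after their values were seen, are given with no test of the family, beside 2.12% of all genes called higher and 1.52% lower. Of 40 proteasome subunits, which degrade tagged proteins, 13 were called higher and 0 lower, with medians of -0.19 at 6 weeks and 0.18 at 8 weeks and 11 of the 13 reversing. Psmb3 was 8.47 to 8.66 in NOD and 8.98 to 9.26 in Rag1ko at 6 weeks, and 8.7 to 9.03 against 8.17 to 8.58 at 8 weeks, apart at both ages (change 1.01 ± 0.14, adjusted p = 9.91e-05). Mitochondrial ribosomal proteins were called higher in 13 of 77, with medians of -0.28 and 0.08, and subunits of respiratory complex I in 8 of 43. With arrays scaled to one interquartile range the proteasome count was 6, that of the mitochondrial ribosome 7 higher and 1 lower, and complex I 1 higher and 2 lower. Of all 19938 genes 254 were higher and 658 lower in that setting. Cytosolic ribosomal proteins turned with that scaling, from 9 higher and 0 lower of 57 to 0 higher and 5 lower. KLF transcription factors were lower in 6 of 17 and higher in 1, and 9 lower and 0 higher under that scaling. Of 1027 olfactory receptors 21 were lower, a share near that of all genes, with a median change of -0.22. After quantile normalization 6 were lower and after scaling to one interquartile range 10, each with a median of -0.08. Of 55 small nucleolar RNA genes 8 were lower and 18 had a positive change.

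Of 302 microRNA genes 11 were called, all lower in the change between ages (1.52% of all genes were lower), with a median over all 302 of -0.29. The olfactory receptors above likewise had 0 called higher and a median of -0.22, which moved with the scaling. Whether the shift is particular to microRNA genes was not tested. The probe sets read the primary transcript or hairpin, not the mature strand. Mature sequences of 10 of the 11 were in the RefSeq table. The 5p strands of Mir7b and Mir7-2, shown because these genes share a seed and had the 2 largest changes among microRNA genes, are given with bases 2 to 8 in capitals.
mmu-miR-7b-5p: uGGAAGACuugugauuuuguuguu
mmu-miR-7a-5p: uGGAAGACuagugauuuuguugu
Mir7b gave 6.76, 6.77 and 7.06 in NOD and 6.61, 7.13 and 7.12 in Rag1ko at 6 weeks, and 4.34, 5.75 and 7.29 (lowest, median, highest) against 8.17, 8.79 and 9.04 at 8 weeks. The 8-week groups were apart and the 6-week groups overlapped (change -2.99 ± 0.49, adjusted p = 0.000618). In 8-week Batf3ko mice it was 6.77 to 7.64. Mir7-2 changed by -2.57 ± 0.50 (adjusted p = 0.00339) and lost its call (adjusted p = 0.0906) with 8-week mice 1 to 3 only. Mir23a, Mir27a and Mir24-2, which follow one another in the RefSeq gene order, changed by -2.55, -2.19 and -1.79.

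A pair of genes among the lowest changes lies beside other called genes in the same order. Fam71a (-3.91 ± 0.33) is next to Atf3 (-4.20), and Polg2 (-3.83 ± 0.35) next to Ddx5 (-0.54 ± 0.14, adjusted p = 0.0239), which was chosen after its values were seen. Whether the paired probe sets read shared transcripts was not tested.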
